A study of Mus musculus with 16 samples.

Results

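The genes described here are Gfap, Vim, Nes and Synm, which encode intermediate filament proteins found in astrocytes, and they are 4 of the 49315 genes in a table of raw counts. They were picked by gene symbol, and each symbol matched 1 row of the table. The samples were 16 mouse hippocampi, 1 library per animal, in 4 groups of 4. The groups were wild type on standard diet, wild type on ketogenic diet, Kcna1 knockout on standard diet and Kcna1 knockout on ketogenic diet. Kcna1 is the gene of the potassium channel subunit Kv1.1, its loss in mice is used as a model of epilepsy, and a ketogenic diet is rich in fat and poor in carbohydrate. Strain, age and sex are not in the labels used here, nor is the kind of Kcna1 allele or the time on the diet.

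Intermediate filaments are rope-like polymers of the cytoskeleton. In astrocytes, GFAP (glial fibrillary acidic protein) is the main subunit, vimentin (Vim) copolymerises with it, and nestin (Nes) and synemin (Synm) join filaments made by those partners, since neither builds a filament on its own. A rise of GFAP and vimentin is the classical sign of reactive astrocytes, and nestin is also made by neural progenitors. Vimentin is also made by endothelial, ependymal and microglial cells, and in bulk tissue a change in the number of cells of a type and a change in RNA per cell cannot be told apart.

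Gfap (ENSMUSG00000020932) lies on chromosome 11 from 102887336 to 102900912 on the minus strand of the GRCm38 assembly, and Vim (ENSMUSG00000026728) on chromosome 2 from 13573927 to 13582826 on the plus strand. Nes (ENSMUSG00000004891) lies on chromosome 3 from 87971078 to 87980451 on the plus strand, and Synm (ENSMUSG00000030554) on chromosome 7 from 67730160 to 67759742 on the minus strand. All are annotated as protein-coding. The use of strand in counting is not given in the sources used here, and 84 exon bases of Synm overlap Ttc23 and 426 overlap Gm45102, both on the opposite strand. Those neighbours were at 2.04 to 4.77 CPM and 0.691 to 2.22 CPM (counts scaled to a common effective library size), against at least 62.8 CPM for Synm.

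The 250 bases before the RefSeq start (GRCm38.p6) are shown for Gfap, Nes and Synm because these genes followed different patterns over the same knockout libraries. Capitals mark matches to the motifs searched. The Vim window falls whole within exons of the GENCODE annotation and is described in words only.
Gfap, chr11:102897201-102897450, minus strand: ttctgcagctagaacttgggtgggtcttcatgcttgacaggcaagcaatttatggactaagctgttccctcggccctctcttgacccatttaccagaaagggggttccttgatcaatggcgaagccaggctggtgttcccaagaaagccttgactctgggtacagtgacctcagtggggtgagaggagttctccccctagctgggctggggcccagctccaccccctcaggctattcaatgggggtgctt
Nes, chr3:87970843-87971092, plus strand: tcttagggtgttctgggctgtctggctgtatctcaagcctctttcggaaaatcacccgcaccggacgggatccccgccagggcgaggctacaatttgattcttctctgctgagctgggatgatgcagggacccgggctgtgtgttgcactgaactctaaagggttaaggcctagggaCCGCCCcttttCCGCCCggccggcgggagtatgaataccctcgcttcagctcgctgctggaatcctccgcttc
Synm, chr7:67759743-67759992, minus strand: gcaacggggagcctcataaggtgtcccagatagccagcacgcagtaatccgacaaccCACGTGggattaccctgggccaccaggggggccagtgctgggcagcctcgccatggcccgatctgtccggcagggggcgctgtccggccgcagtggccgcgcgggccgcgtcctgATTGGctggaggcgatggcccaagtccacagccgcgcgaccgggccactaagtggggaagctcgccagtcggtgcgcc

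The motifs searched, on both strands, were those of STAT factors (letters TTCNNNGAA), of AP-1 (letters TGANTCA) and of nuclear factor I (NFI), the E-box (letters CACGTG) and the GC box (letters GGGCGG). The TATA box (letters TATAAA) and the CCAAT box (the letters of its name) were added after the sequences had been seen, and the reverse of the latter overlaps the start of the NFI motif. The Gfap window held none of these letters. The Nes window held 2 GC boxes, starting 73 and 62 bases before the start, both read on the other strand. The Synm window held an E-box 193 bases and a CCAAT box 78 bases before the start. The Vim window held a TATA box 32 bases before the start and CCAAT boxes 196 and 94 bases before it. Of 32851 mouse promoter windows of this length, 7.02% held the STAT letters, 6.75% AP-1, 1.22% NFI, 6.02% the E-box, 32.7% a GC box, 12.4% the TATA letters and 33.8% CCAAT. A match is a string of letters, and no factor binding was measured.

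Library totals ran from 13440230 to 22309504 counts. Kcna1 measured 107 to 130 CPM in the 8 wild type libraries and 43.4 to 47.2 CPM in 7 knockout libraries. The library labelled knockout KC888LL was at 82.0 CPM, outside both ranges, and results that turn on it are given with and without it. Y-linked genes were expressed in 4 libraries, namely KC890RL, KC846L and the knockout libraries KC872RL and KC873RR, so that sex was unequal between the knockout groups. Fits without these libraries keep only KC893RL and KC888LL of the knockout on the standard diet. No such fit was made without KC888LL as well. Aqp4 (the astrocyte water channel) and the other 12 general astrocyte markers were all detected, the least abundant at 35.5 CPM in its lowest library. No label says that the libraries of a group came from separate litters or batches, and p-values measure the spread between these animals only.

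Gfap in wild type was tight and in knockout was not. Its 8 wild type libraries ran from 294 to 390 CPM, with a median of 332 CPM. On the standard diet the knockout libraries stood at 2327 CPM (KC872RL), 1340 CPM (KC873RR), 611 CPM (KC893RL) and 348 CPM (KC888LL). On the ketogenic diet they stood at 2018 CPM (KC913RR), 1059 CPM (KC934R), 295 CPM (KC935LL) and 288 CPM (KC916RRL). Thus 5 of 8 knockout libraries lay above every wild type library, by 1.84 to 7.02 times the wild type median, and 3 lay within or just below the wild type range. Each diet held libraries of both kinds, and the knockout ranges overlapped the wild type range on both diets. The overlap on the standard diet came from KC888LL alone, and without it the knockout libraries, at 611 to 2327 CPM, lay above every wild type library.

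Vim followed Gfap library by library. On the standard diet the knockout libraries measured 245 CPM (KC872RL), 81.9 CPM (KC873RR), 51.6 CPM (KC893RL) and 31.1 CPM (KC888LL), and the wild type libraries 23.7 to 35.8 CPM. On the ketogenic diet the knockout libraries measured 128 CPM (KC913RR), 71.2 CPM (KC934R), 27.0 CPM (KC935LL) and 22.3 CPM (KC916RRL), and the wild type libraries 23.7 to 24.2 CPM. The same 5 libraries that exceeded the wild type in Gfap exceeded it in Vim, by 2.14 to 10.1 times the wild type median. The number of Vim counts per 100 Gfap counts stayed between 6.11 (KC873RR) and 10.5 (KC872RL) in the knockout libraries, and between 7.12 and 9.87 in the wild type.

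Nes followed Gfap less closely than Vim did. On the standard diet the knockout libraries measured 15.2 CPM (KC872RL), 12.5 CPM (KC888LL), 12.5 CPM (KC893RL) and 11.48 CPM (KC873RR), and the wild type libraries 11.6 to 14.7 CPM. On the ketogenic diet the knockout libraries measured 30.2 CPM (KC913RR), 11.9 CPM (KC934R), 8.38 CPM (KC916RRL) and 8.05 CPM (KC935LL), and the wild type libraries 8.25 to 10.1 CPM. A single library, KC913RR, was therefore far above the rest, at 2.79 times the wild type median of both diets. KC934R on the ketogenic and KC872RL on the standard diet also lay above every wild type library of their diet. KC872RL and KC873RR, which had 7.02 and 4.04 times the wild type median of Gfap, were at 1.40 and 1.06 times that of Nes. In wild type mice the ketogenic libraries lay below the standard libraries without overlap.

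Synm ran the other way, over a narrow range. On the standard diet the knockout libraries measured 69.5 CPM (KC872RL), 80.8 CPM (KC873RR), 89.2 CPM (KC893RL) and 91.2 CPM (KC888LL), and the wild type libraries 84.2 to 98.8 CPM. On the ketogenic diet the knockout libraries measured 62.8 CPM (KC913RR), 70.1 CPM (KC934R), 86.4 CPM (KC916RRL) and 101 CPM (KC935LL), and the wild type libraries 80.5 to 88.1 CPM. The 3 lowest values of all 16 libraries, at 0.730 to 0.815 times the wild type median, came from 3 of the 4 libraries with the most Gfap. The ranges of knockout and wild type overlapped on both diets.

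**Figure D1:**
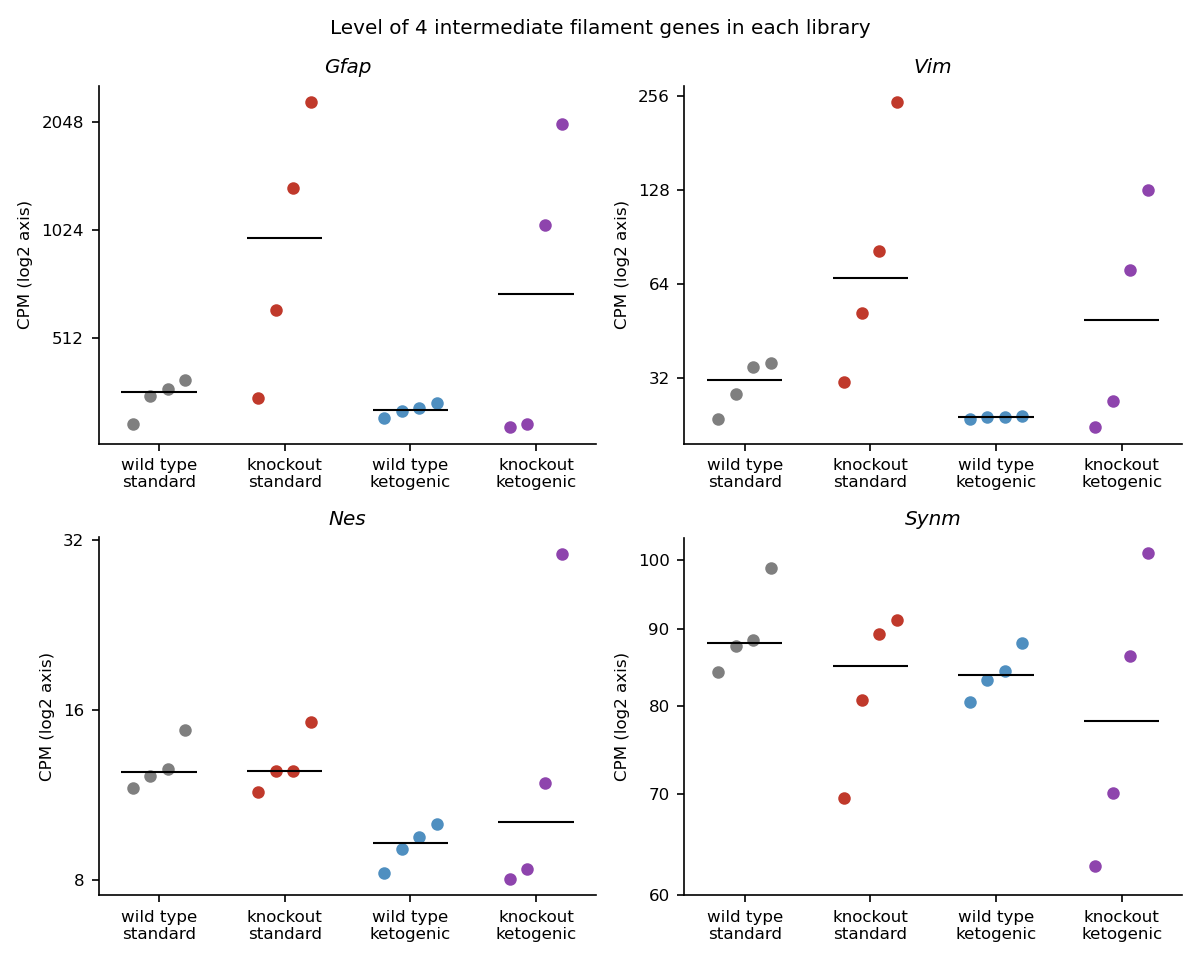
CPM of Gfap, Vim, Nes and Synm (log2 axes) in each of the 16 libraries by group, with 1 point per library, points ordered by level within a group, and a line at the group median. Gfap and Vim spread over 288 to 2327 CPM and 22.3 to 245 CPM in the knockout, Nes has 1 high library at 30.2 CPM, and Synm is lowest at 62.8 CPM.

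Levels per length allow the 4 genes to be ranked against each other. CPM per kilobase of exon put Gfap first and Nes last in all 16 libraries. In wild type Gfap was at 69.7 to 92.6, Synm at 10.2 to 12.4, Vim at 4.99 to 7.55 and Nes at 1.29 to 2.30 on this scale. Vim exceeded Synm in 4 knockout libraries, at 51.6 against 8.76 in KC872RL, 27.1 against 7.91 in KC913RR, 17.3 against 10.2 in KC873RR and 15.015 against 8.83 in KC934R. In KC893RL they were nearly level, with Vim at 10.9 and Synm at 11.2. With the length of the longest transcript in place of all exon bases, Vim exceeded Synm in 6 libraries instead of 4.

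**Figure D2:**
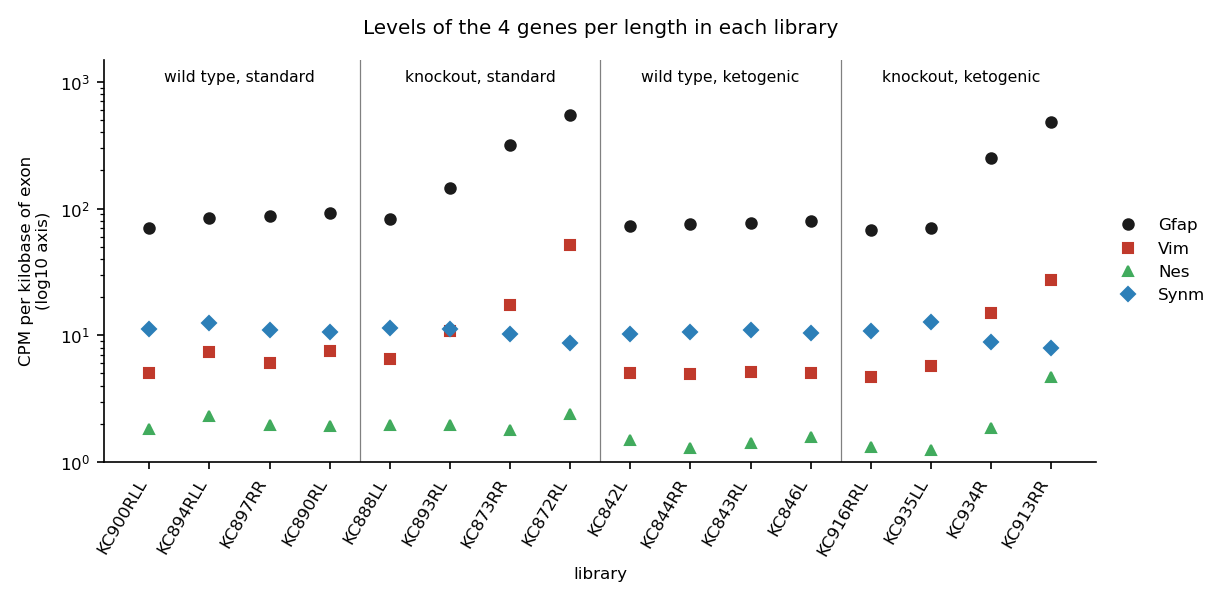
CPM per kilobase of exon (log10 axis) for the 4 genes in each library, grouped by genotype and diet and ordered by Gfap within a group. Gfap is uppermost and Nes lowest in all 16 libraries, and Vim lies above Synm in KC872RL, KC873RR, KC913RR and KC934R.

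The first comparison was of knockout with wild type, using edgeR fitted to 17469 genes with p-values adjusted over all of them. Gfap was higher by 1.72 ± 0.65 (SE) on the log2 scale on the standard diet and 1.504 ± 0.65 on the ketogenic diet, with edgeR adjusted p of 0.271 and 0.524. Vim was higher by 1.74 ± 0.65 and 1.38 ± 0.65, with adjusted p of 0.262 and 0.551. Neither gene passed the threshold of 0.05, and their group ranges overlapped, on the standard diet through KC888LL alone.

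Single libraries moved these differences. Leaving out KC888LL gave log2 differences on the standard diet of 2.01 for Gfap and 2.03 for Vim (edgeR adjusted p = 0.0875 and 0.0800), and leaving out KC872RL gave 1.13 and 0.84. Without the libraries with Y-linked expression they were 0.50 and 0.51, and with Xist as a covariate 1.02 for both. The former fit keeps only KC893RL and KC888LL of the standard-diet knockout, so sex and the weight of KC888LL cannot be told apart there. Leaving out KC913RR gave 0.77 for Gfap and 0.76 for Vim on the ketogenic diet.

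Nes differed by 0.02 ± 0.32 on the standard and 0.66 ± 0.33 on the ketogenic diet, with edgeR adjusted p of 0.989 and 0.566. Leaving out KC913RR put the log2 difference of Nes on the ketogenic diet at 0.04 (edgeR adjusted p = 0.979). Synm differed by -0.12 ± 0.12 and -0.07 ± 0.12, with edgeR adjusted p values of 0.692 (standard) and 0.881 (ketogenic). Leaving out KC913RR put the log2 difference of Synm on the ketogenic diet at 0.03 (edgeR adjusted p = 0.974). On the standard diet 0 of the 4 genes were called by edgeR, where 0.00572% of all tested genes were, and 2 (Gfap and Vim) had an unadjusted p under 0.05, as did 14.3% of all genes. On the ketogenic diet 0 were called, where 0.0172% of all genes were, and 1 (Gfap) had an unadjusted p under 0.05, as did 9.22%. Group ranges failed to overlap for 0 of the 4 on either diet, against 5.86% of all genes on the standard and 3.98% on the ketogenic diet. Without KC888LL the ranges of 2 of the 4 (Gfap and Vim) were apart on the standard diet, as were those of 22.1% of all genes. DESeq2 and limma-voom called 0 of the 4 on either diet as well.

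Averaging the genotype difference over both diets gave 1.61 ± 0.46 (SE) for Gfap, 1.56 ± 0.46 for Vim, 0.34 ± 0.23 for Nes and -0.10 ± 0.08 for Synm, with 4 libraries in each of the 4 groups. The edgeR adjusted p were 0.145, 0.151, 0.505 and 0.620, so 0 of the 4 were called, against 0.0973% of all genes, while Gfap and Vim had an unadjusted p under 0.05, as did 15.8% of all genes.

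Both genes were called in this contrast by DESeq2 (Gfap 1.61, adjusted p = 0.0193; Vim 1.55, adjusted p = 0.0236), which called 2.32% of all genes. They were also called by edgeR when KC888LL was left out (Gfap 1.76, adjusted p = 0.0421; Vim 1.70, adjusted p = 0.0450), a setting in which 4.96% of all genes were called. Over 23 alternatives the adjusted p ran from 0.0193 to 0.814 for Gfap and from 0.0236 to 0.814 for Vim, and limma-voom called neither.

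The second comparison was of the ketogenic with the standard diet. In the knockout Gfap differed by -0.34 ± 0.63 (SE) on the log2 scale, Vim by -0.72 ± 0.62, Nes by 0.17 ± 0.32 and Synm by -0.05 ± 0.12, with edgeR adjusted p of 0.840, 0.605, 0.837 and 0.884. None of the 4 was called, against 1.16% of all genes, none had an unadjusted p under 0.05, against 16.9%, and none had group ranges apart, against 6.39%. The sign of Gfap and Vim rested on KC872RL, without which they were at 0.26 and 0.19. Without the libraries with Y-linked expression they were at 0.93 and 0.59. That fit drops KC872RL and KC873RR and keeps only KC893RL and KC888LL of the knockout on the standard diet. The sign of Nes rested on KC913RR, without which it was at -0.45.

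In wild type mice the differences were -0.12 for Gfap, -0.36 for Vim, -0.47 for Nes and -0.09 for Synm, with edgeR adjusted p of 0.999, 0.999, 0.986 and 0.999. None was called, against 0.0114% of all genes, and none had an unadjusted p under 0.05, against 5.46%. Nes was the 1 gene of the 4 with group ranges apart, as were 4.88% of all tested genes. The spread of each gene was estimated over all 16 libraries, so these edgeR p-values also reflect knockout libraries outside the contrast. For Nes the pooled SD within groups was 0.635 in the knockout and 0.134 in the wild type. Its lowest adjusted p over 24 alternatives was 0.156. The p-values therefore do not show that the diet made no difference in wild type mice.

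The interaction of genotype and diet was -0.21 for Gfap, -0.36 for Vim, 0.64 for Nes and 0.05 for Synm. None of the 4 was called and 0% of all genes were, and none had an unadjusted p under 0.05, against 7.48% of all genes. DESeq2 and limma-voom called 0 of the 4 in the diet contrasts and in the interaction.

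**Figure D3:**
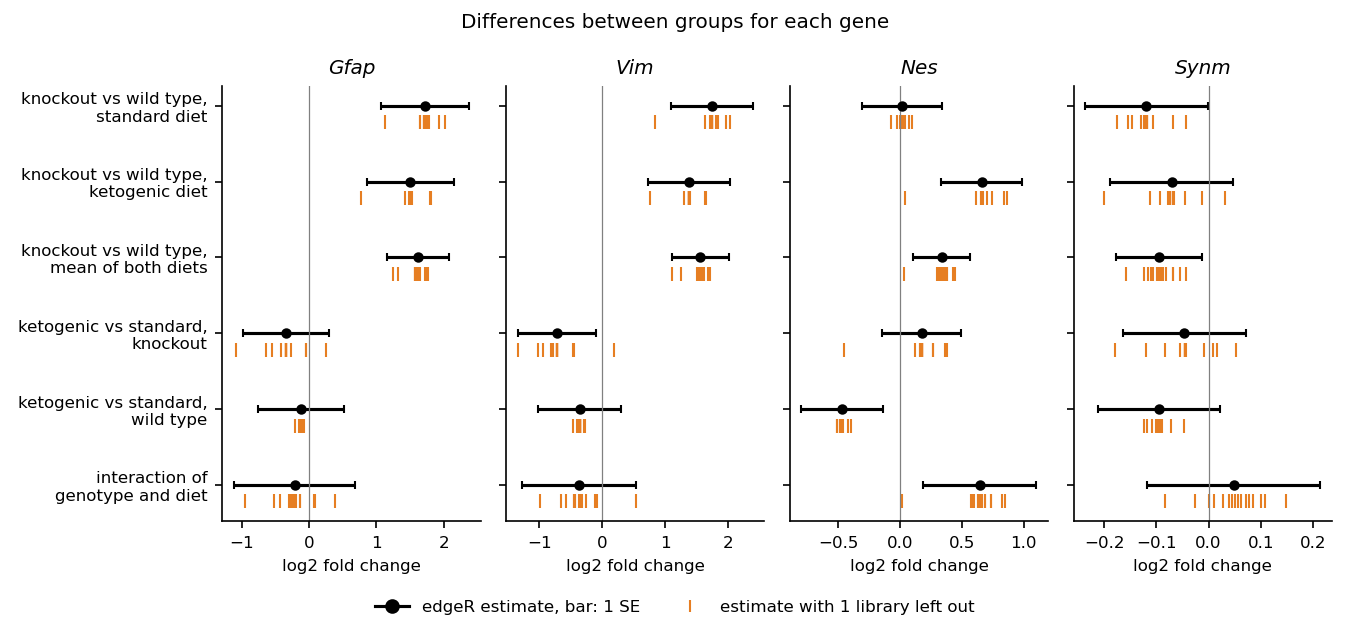
Differences between groups in log2 fold change for each gene, as the edgeR estimate with a bar of 1 SE, with orange ticks for the estimates with 1 library left out. The horizontal axes differ between genes, and the ticks for the diet in the knockout fall on both sides of 0 for all 4 genes, from -1.08 to 0.26 for Gfap.

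The knockout libraries differed from each other far more than the wild type libraries did. The pooled SD of log2 CPM within groups was 1.31 in the knockout and 0.131 in the wild type for Gfap, a ratio of 9.94, and 32 of the 15421 genes with a mean of at least 1 CPM had a larger knockout SD. For Vim the SDs were 1.23 and 0.196, a ratio of 6.26. For Nes they were 0.635 and 0.134, and for Synm 0.251 and 0.0792. The median gene had 0.165 and 0.125, with a median ratio of 1.28. A larger ratio than that of Gfap was found for 6 genes, than that of Vim for 67, than that of Nes for 220 and than that of Synm for 849. These ranks are a description.

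Over the 8 knockout libraries the log2 levels of the 4 genes were set against each other in 6 pairs, with exact two-sided permutation tests over every pairing of the libraries. Gfap in these libraries took values spread from 288 to 2327 CPM with no single gap. Gfap and Vim gave Pearson r = 0.974 (exact permutation p = 2.5e-05, the smallest the pairings can give) and Spearman rho = 1 (exact permutation p = 5.0e-05), so the 2 genes ordered the libraries identically. A doubling of Gfap went with 0.936 log2 units more Vim. Gfap and Synm gave r = -0.876 (exact permutation p = 0.00761) and rho = -0.810 (exact permutation p = 0.0218), and a doubling of Gfap went with a change of -0.166 log2 units in Synm.

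Vim and Synm gave r = -0.816 and rho = -0.810 (exact permutation p = 0.0153 and 0.0218). Gfap and Nes gave r = 0.740 and rho = 0.714 (exact permutation p = 0.0147 and 0.0576), and Vim and Nes gave r = 0.701 and rho = 0.714 (exact permutation p = 0.0465 and 0.0576). Nes and Synm gave r = -0.791 and rho = -0.619 (exact permutation p = 0.0137 and 0.115). Adjusted over all 69872 relations of the 4 genes with the tested genes, the p of these 6 values of r ran from 0.0963 to 0.371, and 0 relations with any gene had an adjusted p under 0.05, while 9209 (13.2%) had an unadjusted exact p under 0.05.

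Leaving out the 2 libraries farthest from the median of the first gene of a pair, which for Gfap were KC872RL and KC916RRL, gave r = 0.996 for Gfap and Vim, -0.911 for Gfap and Synm and -0.918 for Vim and Synm over 6 libraries. The same step gave 0.722 for Gfap and Nes and 0.768 for Vim and Nes (exact permutation p = 0.0722 and 0.0639), and -0.424 for Nes and Synm (exact permutation p = 0.433). For Nes and Synm the libraries left out were KC913RR and KC935LL, and that relation rested on them. With diet group means subtracted the r of Gfap was 0.976 with Vim, 0.748 with Nes and -0.934 with Synm. Each diet alone has 4 knockout libraries, too few for a correlation. In the 6 knockout libraries without Y-linked expression these values were 0.993, 0.874 and -0.924.

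In the 8 wild type libraries Gfap and Vim gave r = 0.823 (exact permutation p = 0.00868), over a narrow range of levels. There Synm did not run against the other 3, with r of 0.190 with Gfap, 0.4996 with Vim and 0.675 with Nes (exact permutation p = 0.669, 0.229 and 0.0545). Whether the correlations differ between genotypes was not tested.

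**Figure D4:**
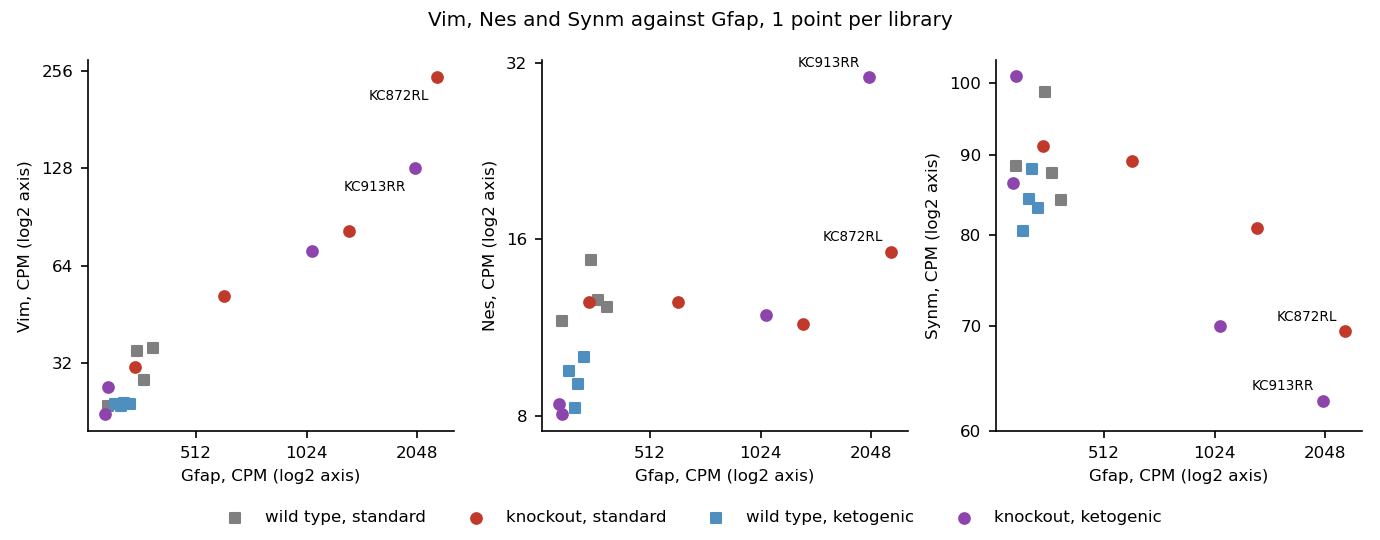
CPM of Vim, Nes and Synm against CPM of Gfap (log2 axes), 1 point per library, squares for wild type and circles for knockout. Vim climbs with Gfap from 22.3 to 245 CPM, Nes stays between 8.05 and 15.2 CPM except in KC913RR at 30.2 CPM, and Synm falls from 101 to 62.8 CPM in the knockout libraries.

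The genes most like each of the 4 over the knockout libraries were taken from those with a mean of at least 1 CPM. For Gfap they were Serpina3n (a secreted protease inhibitor of reactive astrocytes, r = 0.985), Vim itself, Ifitm3 (an interferon-induced membrane protein, r = 0.973), Hspb6 (a small heat shock protein, r = 0.973) and P4ha3 (a collagen prolyl hydroxylase subunit, r = 0.970). For Vim they were Capns1 (the small calpain subunit, r = 0.979), P4ha3 (r = 0.978), Tspan6 (r = 0.977), Gfap and Medag (r = 0.973). For Nes they were Glce, Jak2, Sertad1, Fam53b and Exoc2, with r from 0.973 to 0.983, and for Synm Cfap206, 1700086L19Rik, Vwa5b1, Kctd14 and Strbp, with r from 0.960 to 0.970. Counting from the lowest r with Gfap, Synm ranked 224 of 15420 genes.

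Serpina3n measured 260, 157, 85.5 and 40.7 CPM in KC872RL, KC873RR, KC893RL and KC888LL, and 179, 125, 45.9 and 48.3 CPM in KC913RR, KC934R, KC935LL and KC916RRL, against 37.6 to 49.5 CPM in wild type. Its order is that of Gfap but for the 3 lowest libraries. Hspb6 measured 10.7, 6.002, 4.88 and 2.06 CPM and 11.4, 7.46, 2.35 and 1.87 CPM in the same libraries, against 2.16 to 3.57 CPM in wild type. The 5 libraries high in Gfap and Vim were the high ones in these genes too, which follows from their choice by r with Gfap over the same libraries. Nearness in pattern was measured over the same 8 animals, where the depth and the condition of an animal touch every gene.

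Of 9 other pan-reactive astrocyte genes, 6 were tested, and 6 of 6 had a higher mean in the knockout on each diet, with a median log2 fold change of 0.99 and 1.34, against 0.00 for all genes. None was called by edgeR, DESeq2 or limma-voom on either diet, and 2 of the 6 on the standard and 4 on the ketogenic diet had an unadjusted p under 0.05 in edgeR, as did 14.3% and 9.22% of all genes. Without KC872RL the median on the standard diet was 0.52, and without KC913RR that on the ketogenic diet was 0.23, while leaving out KC888LL gave 1 call of 7 tested on the standard diet, where 5.73% of all genes were then called. Cd44, a hyaluronan receptor, measured 47.1 CPM in KC913RR, 16.2 in KC872RL, 12.8 in KC873RR and 3.52 to 6.79 in the other 5 knockout libraries, against 2.73 to 5.34 CPM in wild type. S1pr3, a sphingosine-1-phosphate receptor, measured 63.6 CPM in KC913RR and 6.46 to 14.3 CPM in the other 7. Timp1, an inhibitor of matrix proteases, measured 12.7 CPM in KC913RR and 1.33 to 4.98 CPM in the other 7. Aspg, an asparaginase, had r = 0.923 with Gfap and measured 19.3 CPM in KC913RR, 10.97 in KC872RL, 10.2 in KC873RR, 8.56 in KC893RL, 6.91 in KC934R and 2.94 to 3.84 CPM in the other 3, against 2.54 to 4.59 CPM in wild type. It was thus above every wild type library in the 5 libraries high in Gfap. KC913RR, the library with the high Nes, led in these 4 genes, of which the first 3 were picked after their values were seen, whereas KC872RL led in Gfap, Vim and Serpina3n.

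Gfap is a known target of cytokines of the interleukin 6 family, which act through a receptor containing gp130, the kinases JAK1 and JAK2 and the transcription factor STAT3. Of 17 listed genes of this route 15 were tested and 0 were called in any contrast by edgeR, DESeq2 or limma-voom, with 0 to 4 of the 15 at an unadjusted p under 0.05 in edgeR, where 0% to 1.16% of all genes were called and 5.46% to 16.9% had such a p. Without KC888LL there was 1 call for the genotype on the standard diet and 2 for the diet in the knockout, where 5.73% and 6.18% of all genes were called. Knockout exceeded wild type in 14 of 15 over both diets, with a median log2 difference of 0.10 against 0.01 for all genes.

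Among ligands, Lif measured 13.0 CPM in KC913RR and 0.387 to 1.05 CPM in the other 7 knockout libraries, Clcf1 measured 7.76 CPM against 0.646 to 2.92 CPM, and Il6 was at most 0.0589 CPM in any library. Among receptors, Osmr measured 24.5 CPM in KC913RR, 14.7 in KC873RR, 12.9 in KC872RL and 4.00 to 7.23 CPM in the other 5. Stat3 measured 100.2 CPM in KC913RR and 46.2 to 67.9 CPM in the other 7, and its feedback inhibitor Socs3 measured 18.3 CPM against 0.920 to 3.67 CPM.

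KC913RR was the highest of the 16 libraries for 8 of these 15 genes and for 16.7% of all tested genes. The number of the 15 genes above every wild type library was 8 in KC872RL, 9 in KC873RR, 7 in KC893RL and 8 in KC913RR, where 17.9% to 23.8% of all tested genes were, and 1 in each of the 3 libraries with the least Gfap, where 7.94% to 12.4% of all genes were. In KC934R, with 3.19 times the wild type median of Gfap, it was 2 of 15, against 18.8% of all genes. These were Jak1 and Clcf1, the latter at 1.33 CPM against at most 1.18 CPM in wild type, while Stat3 (46.5 CPM), Socs3 (1.16 CPM) and Lif (0.387 CPM) lay within or below the wild type range. Lif, Il6, Stat3, Socs3, Cd44, S1pr3, Timp1, Hspb1, Hspb8 and Nefm were chosen for display after their values were seen.

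**Figure D5:**
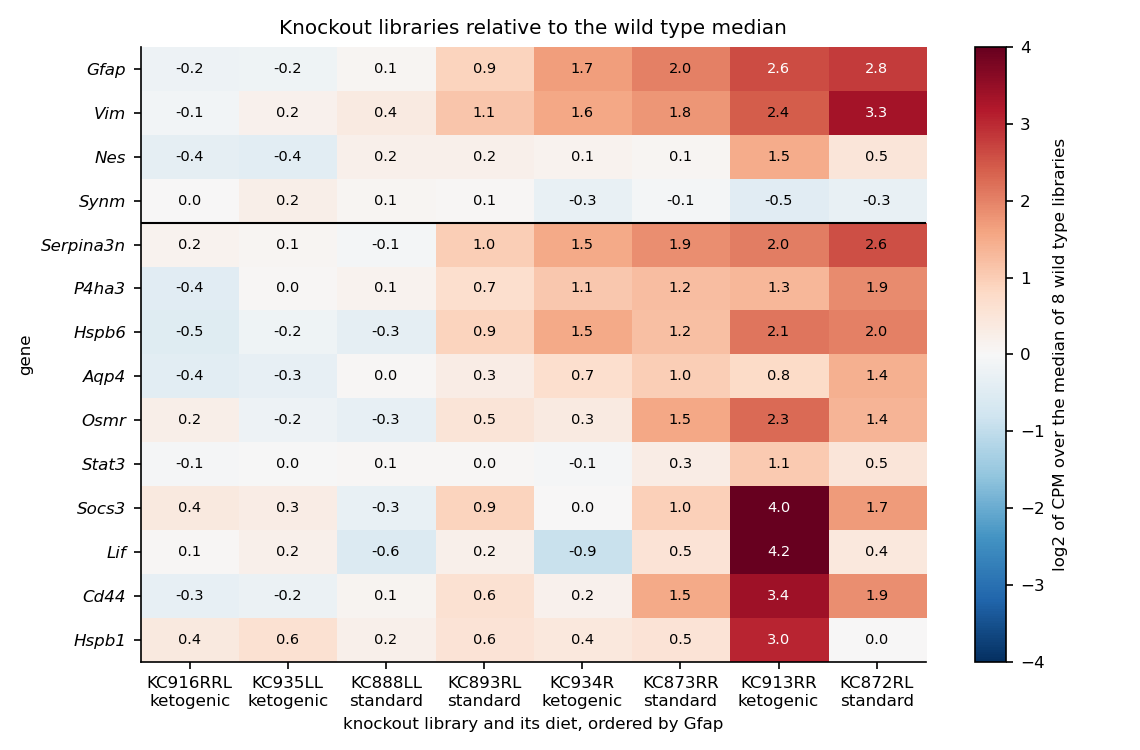
Log2 of CPM over the median of the 8 wild type libraries, for the 4 genes (above the line) and 10 others, in the 8 knockout libraries ordered by Gfap from left to right. Gfap, Vim, Serpina3n, P4ha3 and Hspb6 are raised in the 5 right-hand libraries, while Nes, Stat3, Socs3, Lif and Hspb1 stand out in KC913RR.

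A further list of 27 genes, from the BMP, Notch and TGF-beta routes and the transcription factors of astrocytes, gave medians of 0.06 and 0.05 for knockout against wild type on the standard and ketogenic diets. None was called on either diet by edgeR, DESeq2 or limma-voom, where 8 and 2 of the 27 had an unadjusted p under 0.05 in edgeR, as did 14.3% and 9.22% of all genes. Without KC888LL 6 of the 27 were called on the standard diet, against 5.73% of all genes. For the diet in the knockout, where 1.16% of all genes were called, 1 of the 27 was called. Bmp4, a ligand that promotes astrocyte differentiation, fell by 2.37 ± 0.50 (SE, edgeR adjusted p = 0.0364). Its call was lost in 10 of the 16 fits with 1 library left out, with an edgeR adjusted p of up to 0.117 (without KC913RR), and without KC872RL the estimate was -1.38 with the call kept. With Xist as a covariate Bmp4 was at -1.69 (edgeR adjusted p = 0.260), and without the libraries with Y-linked expression at -1.47 (edgeR adjusted p = 0.162). Of the 14 tested genes for linkers, chaperones and turnover of intermediate filaments, 1 was called, Cryab, a small heat shock protein that binds GFAP and is also abundant in oligodendrocytes, which fell by 0.68 ± 0.14 under the ketogenic diet in the knockout (edgeR adjusted p = 0.0266). Its call was lost in 4 of those 16 fits, without KC872RL (edgeR adjusted p = 0.115), KC873RR (0.0512), KC913RR (0.0514) or KC916RRL (0.0623), and limma-voom called neither Bmp4 nor Cryab. With Xist as a covariate and without the libraries with Y-linked expression its edgeR adjusted p was 0.0973 and 0.245, at estimates of -0.72 and -0.64. Summed oligodendrocyte markers were at 1953 to 3639 CPM in the knockout on the ketogenic and 5045 to 5538 CPM on the standard diet, and their part in the Cryab difference was not tested. In that contrast the markers Cldn11, Mag, Mobp, Cnp, Mog and Mbp fell, by 0.80 to 1.08 on the log2 scale with edgeR adjusted p of 0.0144 to 0.0429. Each of these 6 lost its call in 1 to 12 of the 16 fits with 1 library left out, in each case without KC872RL among others or alone, and none was called with Xist as a covariate, without the libraries with Y-linked expression or by limma-voom. Hspb8, another small heat shock protein, had r = 0.895 with Gfap, and Hspb1 measured 20.8 CPM in KC913RR against 2.57 to 3.88 CPM in the other 7.

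The other 12 intermediate filament genes were neurofilaments, lamins, keratins and the like, of which 11 were tested and 0 called in any contrast by edgeR, DESeq2 or limma-voom, with 0 to 2 of the 11 at an unadjusted p under 0.05 in edgeR. Over all genes edgeR called 0% to 1.16% per contrast, and 5.46% to 16.9% had an unadjusted p under 0.05. For the diet in the knockout, leaving out KC888LL gave 2 calls among 12 tested and leaving out KC894RLL gave 1 of 11, where 6.18% and 0.733% of all genes were called. Their median difference between knockout and wild type was -0.05 on the standard and 0.03 on the ketogenic diet. Over the knockout libraries 7 of the 11 had a positive r with Gfap, with a median of 0.325, against 8734 of 17468 and 0.00 for all genes. The largest absolute r with Gfap were those of Nefh, a neurofilament subunit (r = 0.632), and Lmna, a nuclear lamin (r = 0.619). Nefh measured 63.8 to 96.3 CPM in the knockout and 57.7 to 82.0 CPM in wild type. Lmna measured 57.9 CPM in KC913RR and 29.8 to 38.5 CPM in the other 7.

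Other cell types make Vim and Nes, so their markers were summed in the same libraries. Microglia markers (13 genes) summed to 640 and 644 CPM in KC872RL and KC873RR and to 268 to 316 CPM in the other 6 knockout libraries, against 287 to 328 CPM in wild type. In KC913RR and KC934R, where Gfap and Vim were high, these sums were 292 and 289 CPM. KC872RL and KC873RR are the knockout libraries with Y-linked expression. All 13 markers exceeded every wild type library in each of them, as did 23.6% and 19.6% of all tested genes. In KC913RR and in KC934R 2 of the 13 did, against 23.8% and 18.8%. Gene by gene, 13 of the 13 had a positive r with Gfap over the knockout libraries, with a median of 0.600, and 13 of 13 with Vim, with a median of 0.610. Of all 17468 genes compared, 8734 had a positive r with Gfap and 8785 with Vim, with medians of 0.00. The microglia markers nearest to Gfap were the complement genes C1qb (r = 0.866) and C1qc (r = 0.800). C1qb measured 35.5 CPM in KC872RL, 29.5 in KC873RR, 16.5 in KC913RR, 14.9 in KC934R and 12.6 in KC893RL, all above the wild type maximum of 11.9 CPM, and 9.28 to 10.9 CPM in the other 3. C1qc measured 18.0 CPM in KC913RR, against at most 13.3 CPM in wild type. Itgam, an integrin subunit of microglia, was the 1 marker of 13 called, in a contrast that called 1.16% of all genes, and was lower by 1.14 ± 0.27 (SE) on the log2 scale under the ketogenic diet in the knockout (edgeR adjusted p = 0.0483). That call was lost in 14 of the 16 fits with 1 library left out, and the estimate was -0.84 without KC872RL, -0.63 with Xist as a covariate and -0.36 without the libraries with Y-linked expression. The part of microglia in the Gfap and Vim values was not tested. Ependymal and choroid plexus markers (8 genes) summed to 38.6 CPM in KC913RR, the lowest of the 16 libraries, and to 48.2 to 567 CPM in the other knockout libraries. Ttr alone ran from 3.95 to 971 CPM over the 16 libraries, so the spread of these sums is largely that of 1 gene. Endothelial markers (8 genes) summed to 181 CPM in KC913RR and 192 to 224 CPM in the other 7. Of the 8, 5 had a positive r with Gfap, with a median of 0.130. Cldn5, a tight junction protein of endothelium, had r = 0.880 with Gfap and 0.876 with Vim, and exceeded every wild type library (14.3 to 19.2 CPM) in the 5 libraries high in Gfap, with up to 28.2 CPM in KC872RL. Pecam1 of the same list had r = 0.558 with Gfap. The part of endothelial cells in the Vim values was not tested. Mural cell markers (8 genes) summed to 177 to 230 CPM in the knockout libraries and 169 to 211 CPM in wild type. Of the 8, 4 had a positive r with Gfap, with a median of -0.050. The largest absolute r were those of Abcc9 (r = 0.783) and Cspg4 (r = -0.694). Neural progenitor and proliferation markers (11 genes) summed to 158 CPM in KC913RR, the lowest of the knockout libraries, and to 160 to 206 CPM in the other 7.

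General astrocyte markers (13 genes) summed to 5788 CPM in KC913RR, the lowest of all libraries, to 7633 in KC872RL and 8125 in KC873RR, and to 6654 to 7040 CPM in the other 5 knockout libraries, against 6386 to 7150 CPM in wild type. These sums lean on Slc1a2, which alone was at 2757 to 3520 CPM. Gene by gene, 5 of the 13 exceeded every wild type library in KC913RR, as did 23.8% of all tested genes. The counts were 10 in KC872RL, 9 in KC873RR, 6 in KC934R and 3 in KC893RL, where 17.9% to 23.6% of all genes did. In the 3 libraries with the least Gfap they were 0 to 2, against 7.94% to 12.4%. Aqp4 was the member of that list nearest to Gfap, with r = 0.957, and measured 387 CPM in KC872RL, 284 in KC873RR, 244 in KC913RR, 230 in KC934R and 107 to 176 CPM in the other 4. Kcnj10, an astrocyte potassium channel, had r = 0.856 and measured 352 CPM in KC872RL, 267 in KC873RR, 231 in KC913RR and KC934R and 189 to 204 CPM in the other 4, against 182 to 216 CPM in wild type. Of the 13 genes 11 had a positive r with Gfap, and the median was 0.144, against 8734 of 17468 and 0.00 for all genes.

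For the diet in the knockout 2 of these 13 genes were called, where 1.16% of all genes were called. S100b, a calcium-binding protein, fell by 0.59 ± 0.12 (SE) on the log2 scale (edgeR adjusted p = 0.0291), from 52.5 to 87.5 CPM on the standard to 39.5 to 55.7 CPM on the ketogenic diet. Mlc1, a membrane protein of astrocyte endfeet, fell by 0.46 ± 0.10 (edgeR adjusted p = 0.0337), from 172 to 252 CPM to 133 to 172 CPM. The S100b call was lost in 4 and the Mlc1 call in 8 of the 16 fits with 1 library left out, with highest edgeR adjusted p of 0.112 and 0.136. Neither was called with Xist as a covariate, at -0.47 and -0.32, or without the libraries with Y-linked expression, at -0.36 and -0.24.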

How the data were processed

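The authors deposited 1 table of raw counts per gene and animal. Per the submitters' processing notes DESeq2 and the mm10 build were used, while the aligner, the counting program, the annotation and the use of strand are not given in the sources used here. Columns carried an animal tag, genotype and diet, so each was assigned to its group, and libraries are named by tag. No 2 libraries of a group agreed within counting noise (24 pairs, chi-square per gene at least 3.86).

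Counts were tested in edgeR 4.0.16 (R 4.3.3) with filterByExpr, TMM and the two-sided quasi-likelihood F test, with 1 coefficient per group, all 16 libraries and 12 residual degrees of freedom. Adjustment was by Benjamini-Hochberg over the 17469 genes tested, which held at least 99.8% of each library's counts, and a gene is called at an adjusted p under 0.05. Log2 CPM used a prior count of 2. Positions are from GENCODE M21, which held 49056 of the identifiers. Alternatives used DESeq2 1.42.0 and limma 3.58.1, other filters and scalings, Xist as a covariate, and fits without 1 library or without those with Y-linked expression. The fits were tested on simulated counts.

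The 4 genes and all gene lists were chosen with earlier results of these data known. Named genes were the 4 members, Kcna1, the 5 genes with the highest r with each member, and per list the called genes or otherwise the 2 with the largest absolute r with Gfap, where ependymal, progenitor and fibroblast lists are given as sums only. Beyond this rule, Aqp4, Kcnj10, C1qb and C1qc are named for their r with Gfap although their lists held called genes, and genes chosen after their values were seen are listed with the results. Slc1a2 and Ttr are named as abundant members of their sums. Not every called marker is reported here.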

Additional observations from a re-analysis of the deposited data

Results flagged for a closer look

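Within a group of 4 libraries, a value was picked out when its gap to the nearest other library exceeded 0.829 of the group's range. Chance picks out about 1 group in 20, and here 13 of 124 groups were, none of them for Gfap, Vim, Nes or Synm.

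Of the 13, 9 were the library KC913RR in the knockout on the ketogenic diet. They were Cd44 at 47.1 CPM, S1pr3 at 63.6 CPM, Timp1 at 12.7 CPM, Osmr at 24.5 CPM, Clcf1 at 7.76 CPM, Lif at 13.0 CPM, Stat3 at 100.2 CPM, Socs3 at 18.3 CPM and Hspb1 at 20.8 CPM, each the highest of its group. Apart from Osmr and Clcf1, named for their r with Gfap, these genes were shown after their values had been seen. The share of groups picked out is therefore not that of an unselected set. Kcna1 in KC888LL was at 82.0 CPM, above the rest of the knockout on the standard diet. Kcna1 in KC894RLL was at 130 CPM (129.7), above the other wild type libraries on that diet, and S1pr3 in KC900RLL was at 7.06 CPM, below them. Mlc1 in KC844RR was at 166 CPM, above the rest of the wild type on the ketogenic diet.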

How the results depend on the processing

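Of 568 log2 fold changes of the 4 genes under alternatives, 535 kept their sign and their side of the threshold, 29 changed sign and 4 became calls. With Xist as a covariate the diet in the knockout moved to 0.53 for Gfap and 0.19 for Vim, the interaction to 0.71, 0.60 and -0.05 for Gfap, Vim and Synm, and Nes between genotypes on the standard diet to -0.02. Without the libraries with Y-linked expression these values were 0.93, 0.59, 1.03, 0.87, -0.05 and -0.06. With limma-voom Nes under the diet in the knockout was at -0.06. DESeq2 made Gfap (1.61) and Vim (1.55) calls in the mean over both diets.

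With 1 library left out, the estimates ran as follows. The diet in the knockout ran from -1.08 to 0.26 for Gfap, -1.34 to 0.19 for Vim, -0.45 to 0.38 for Nes and -0.18 to 0.05 for Synm. The interaction ran from -0.95 to 0.38 for Gfap, -0.98 to 0.54 for Vim and -0.08 to 0.15 for Synm. Nes between genotypes on the standard diet ran from -0.07 to 0.09, and Synm on the ketogenic diet from -0.20 to 0.03. The mean over both diets ran from 1.25 to 1.76 for Gfap and 1.11 to 1.70 for Vim, with calls only without KC888LL.

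Of 78 correlations under alternatives, 64 kept their side of an unadjusted exact permutation p of 0.05 and all kept their sign. Without the 2 farthest libraries r was 0.722 for Gfap and Nes, 0.768 for Vim and Nes and -0.424 for Nes and Synm, and the last was -0.797 without Y-linked libraries. With 1 library left out these pairs ran from 0.675 to 0.797, 0.630 to 0.806 and -0.867 to -0.646. The first missed that p in 3 of 8 such fits (without KC913RR, KC916RRL or KC935LL), with an exact permutation p of up to 0.0716. The second missed it in 6 of 8 (all but those without KC872RL or KC913RR), with an exact permutation p of up to 0.129, and the last in 1 (without KC913RR, exact permutation p = 0.111).

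Over all genes, the genotype difference on standard diet gave 1 call, 171 with DESeq2 and 1016 without KC888LL. On the ketogenic diet it gave 3 calls and 1 to 41 under alternatives, and the mean over both diets gave 17 calls, 405 with DESeq2, 880 without KC888LL and 1 without Y-linked libraries. The diet gave 202 calls in the knockout, 2 with limma-voom, 664 with DESeq2 and 28 to 1096 with 1 library left out, and 2 calls in wild type, with 0 to 12 under alternatives. The interaction gave 0 calls, and 4 with DESeq2. The cause of these shifts was not tested. No paired analysis was possible because the columns carry an animal tag and no replicate number. With 4 animals a group and a knockout SD above 1 log2 unit for Gfap and Vim, edgeR with all libraries did not separate differences of the size seen from the spread.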

Other observations

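In KC913RR, where Nes was at 30.2 CPM, the neuron markers (8 genes) summed to 8473 CPM, within the 6905 to 8589 CPM of the knockout libraries and above the 7522 to 8256 CPM of the wild type, and the oligodendrocyte markers (8 genes) to 1953 CPM, the lowest of the 16 libraries. Of the 8 neuron markers 5 had a positive r with Gfap over the knockout libraries, as did 8734 of all 17468 genes. The largest absolute r were negative, at -0.945 for Syt1 (a synaptic vesicle protein) and -0.938 for Rbfox3 (the neuronal nuclear protein NeuN). Fibroblast and meningeal markers (7 genes) summed to 138 CPM there and to 131 to 182 CPM over the 8 knockout libraries. Nefm, a neurofilament subunit of neurons, measured 390 CPM in KC913RR and 364 CPM in KC934R, against 228 to 317 CPM in the other 6 knockout libraries and 217 to 278 CPM in wild type.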
